A study of Mus musculus with 31 samples.

Results

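RM-9 is a mouse prostate adenocarcinoma cell line, and the libraries described here are its subcutaneous tumors 24 h after a single local dose of 15 Gy of radiation (RT). Members were taken by their labels alone. They are the 3 RM-9 libraries labelled RT 24 h and the 4 labelled RM-9 Control, 7 of the 31 libraries of the series, each from the tumor of 1 mouse. The whole series holds RM-9 tumors and tumors of MC-38, a mouse colon cancer line, each without treatment or 3 h, 12 h or 24 h after RT, and all were profiled by mRNA sequencing of tumor tissue. All mice were labelled C57BL/6 and wild type, with the strain given as C57BL/6J in the study's methods, and in both groups RM-9 cells had been injected under the skin of the right hind leg. The control tumors received no treatment and carry a 3 h label, so untreated tumors collected at 24 h were not among the libraries, and time of collection and RT cannot be told apart in this comparison. Each tumor is whole tissue that grew from 1 cultured line and also holds the cells of the host. Expression was given in TPM, the share of transcripts scaled to a fixed total, in which each value is scaled by gene length and by the sum over all genes of that library.

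Ionizing radiation breaks DNA. Broken DNA activates the p53 transcription factor, which switches on genes for cell cycle arrest, repair and death, among them Cdkn1a, the inhibitor of cyclin-dependent kinases that holds cells before division. Damaged and dying cells also release signals that act through NF-kB and interleukin 1, and chemokines made in the tissue then draw in leukocytes: ligands of the receptor CXCR2 attract neutrophils, and CC chemokines attract mainly monocytes, macrophages and lymphocytes. DNA that reaches the cytosol can be sensed by cGAS, which signals through STING to interferon, or by AIM2, which activates caspase-1.

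Depth as estimated from the files was 23 to 26.2 over the 7 libraries, in units of 1000000 reads, and 1 TPM stood for 27.8 to 33.9 reads per kilobase of transcript. Genes of the mitochondrial genome held 47.8% to 50.5% of all TPM in control mice and 54.3%, 47.3% and 49.3% in RT mice 1, 2 and 3. The mean share was 49.2% ± 1.49 (SD, n = 4) in control mice and 50.3% ± 3.57 (SD, n = 3) after RT (two-sided exact permutation test, p = 0.657, where the smallest p that 35 assignments allow is 0.0286). Most of that share was mt-Nd4l, at 35.6% to 41.7%, whose deposited FPKM was 42.4 times the value that its own coverage implied in every library, while mt-Nd1, mt-Nd2, mt-Nd4 and mt-Atp6 were listed at 0. Because TPM adds up to the same total, a larger mitochondrial share lowers every other gene: the median gene of RT mouse 1 lay 0.17 below the control mean on the log2 scale, against 0.018 and 0.028 above it for RT mice 2 and 3. Every comparison was therefore repeated after TPM was rescaled without the mitochondrial genes. Between any control and any RT library the correlation of log2(TPM + 0.5) across genes was 0.968 to 0.984, and between control libraries it was 0.971 to 0.984. Skeletal muscle markers, from the leg the tumors grew on, varied widely within both groups, with a summed level of 345 to 3229 TPM in control mice and 341 to 3161 TPM after RT. The keratins Krt8 and Krt18, which mark the epithelial origin of an adenocarcinoma, stood at 650 to 1069 TPM and 238 to 325 TPM over the 7 libraries, while the prostate marker Pbsn was listed at 0 in all 7.

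Across all genes, the difference between tumors at 24 h and untreated tumors was small against the spread between mice. Of 14013 genes with a mean of at least 0.5 TPM over the RM-9 libraries, 0 passed an adjusted p of 0.05 in limma, both in TPM as deposited and after rescaling. The lowest adjusted p was 0.167 in TPM as deposited, for Cdkn1a and for Ccl3, a chemokine of macrophages. Dunnett comparisons, the test the study used for single genes, also left 0 genes once adjusted over all genes. At an unadjusted p under 0.05, 277 genes (1.98% of those tested) were higher and 404 (2.88%) lower in limma, or 4.86% in either direction, beside a threshold that itself lets 5% through. After rescaling, the counts were 417 (2.98%) and 451 (3.22%), or 6.2% in all, and with scaling by median ratios 537 and 408, so which direction held more genes depended on the scale. Without 1 mouse the counts as deposited moved most for RT mouse 2 (397 higher and 1077 lower), RT mouse 1 (266 and 144), RT mouse 3 (153 and 358) and control mouse 4 (263 and 152).

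A count without a model took the genes whose groups did not overlap. In 281 genes (2.01%) every RT mouse was above every control mouse, and in 314 (2.24%) every RT mouse was below, together 4.25%. After rescaling these were 393 (2.81%) and 382 (2.73%), together 5.54%. With 1 mouse fewer the counts were larger: the genes above were 861 without RT mouse 1, 791 without RT mouse 2, 562 without control mouse 3 and 541 without control mouse 4, and the genes below were 1502 without RT mouse 2, 847 without RT mouse 3, 789, 715 and 591 without control mice 3, 1 and 2. With a log2 fold change of at least 1 as well, 12 genes (0.0856%) were higher and 3 (0.0214%) lower, and after rescaling 18 (0.129%) and 4 (0.0286%). Among the 12 were the chemokine genes Cxcl3, Ppbp, Cxcl2 and Ccl3, the pentraxin gene Ptx3 and Angptl4, a lipoprotein lipase inhibitor, and the 3 were Mcpt1, Dbp and Pcdhga6. The median gene had a log2 fold change of -0.040 as deposited and -0.010 after rescaling, and without RT mouse 1 it was 0.023.

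**Figure D1:**
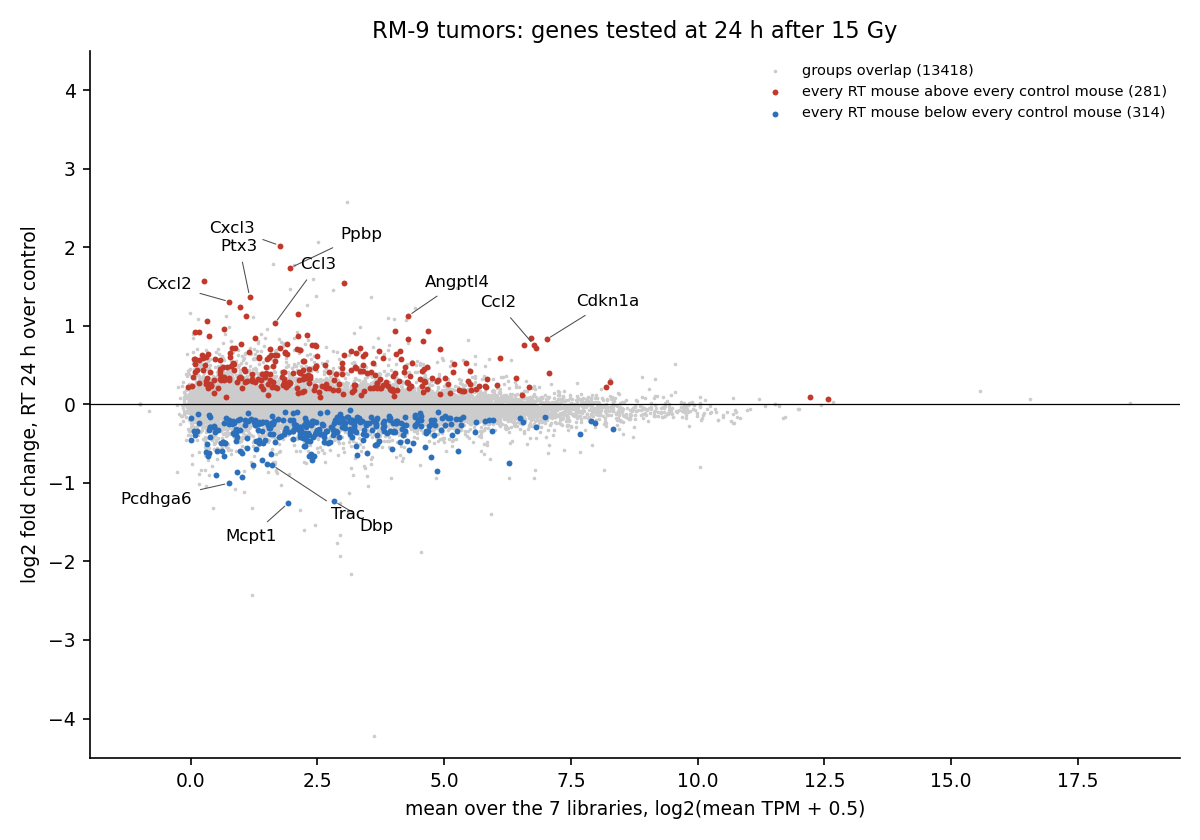
Each point is 1 of the 14013 genes tested, with its mean level over the 7 libraries on the horizontal axis, as log2(mean TPM + 0.5), and the limma log2 fold change at 24 h over control on the vertical axis. Red marks the 281 genes in which all RT mice exceeded all control mice, blue the 314 with every RT mouse below, and grey the rest. The highest and the lowest fold changes, 2.57 and -4.23, belong to grey points.

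Part of the p53 targets lay above the controls at 24 h, without passing the adjusted threshold. Cdkn1a had the lowest p of the list, and Gdf15 and Dcxr had larger log2 fold changes. Cdkn1a (ENSMUSG00000023067, chromosome 17, 29090979 to 29100722 in GRCm38 coordinates) was at 116, 83.6, 92.7 and 98.8 TPM in the control mice and at 175, 168 and 174 TPM in the RT mice. The RT mice were close to each other and above every control. The means were 97.6 ± 13.5 TPM (SD, n = 4) and 172 ± 3.71 TPM (SD, n = 3). The log2 fold change was 0.83 ± 0.14 (SE), with a limma adjusted p of 0.167. After rescaling the log2 fold change was 0.86 (limma adjusted p = 0.164), and over all alternatives its adjusted p ran from 0.0461 to 1. The lowest was reached after rescaling and without control mouse 1, the control with the highest value.

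Dcxr, a dicarbonyl and xylulose reductase, was at 11.9, 11.9, 8.39 and 13 TPM in control mice and at 22.7, 20.3 and 22.4 TPM after RT, again with no overlap. Gdf15, a stress cytokine, was at 0.556, 0.516, 0.933 and 0.505 TPM in control mice and at 1.75, 2.01 and 1.29 TPM after RT. Plk2, a kinase of the cell division cycle, was at 9.05, 7.07, 7.47 and 8.34 TPM and at 13.1, 9.84 and 15.0 TPM. The log2 fold changes of these genes were 0.93 ± 0.21, 0.96 ± 0.25 and 0.62 ± 0.16 (SE), with limma adjusted p of 0.632, 0.785 and 0.785.

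Of the 38 p53 targets in the list, 37 were tested, and 9 were above every control mouse in all RT mice, against 2.01% of all genes. In 1, Sesn1, every RT mouse was below, beside 2.24% of all genes, which did not hold after rescaling, when 10 were above and 0 below, beside 2.81% and 2.73% of all genes. Without control mouse 4 the count above was 14, beside 3.86% of all genes. At an unadjusted p under 0.05, 11 were higher and 0 lower, beside 1.98% and 2.88% of all genes. The other 5 above all controls, 4 of them named after their values were seen, were Trp53inp1, Fas (the death receptor), Tnfrsf10b, Polk and Btg2. The list's median log2 fold change was 0.20, beside -0.040 for all genes, and between 0.17 and 0.30 over the alternatives. Bax and Bbc3, which promote apoptosis, overlapped between the groups. Bax was at 138 to 194 TPM in control mice and 156 to 176 TPM after RT, and Bbc3 at 13.1 to 15.7 and 11.8 to 15.5 TPM. Mdm2, which marks p53 for degradation, was at 512, 462, 880 and 721 TPM in control mice and at 706, 1018 and 980 TPM after RT, so RT mouse 1 fell within the controls. Bax, Bbc3 and Mdm2 were also chosen after their values were seen.

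**Figure D2:**
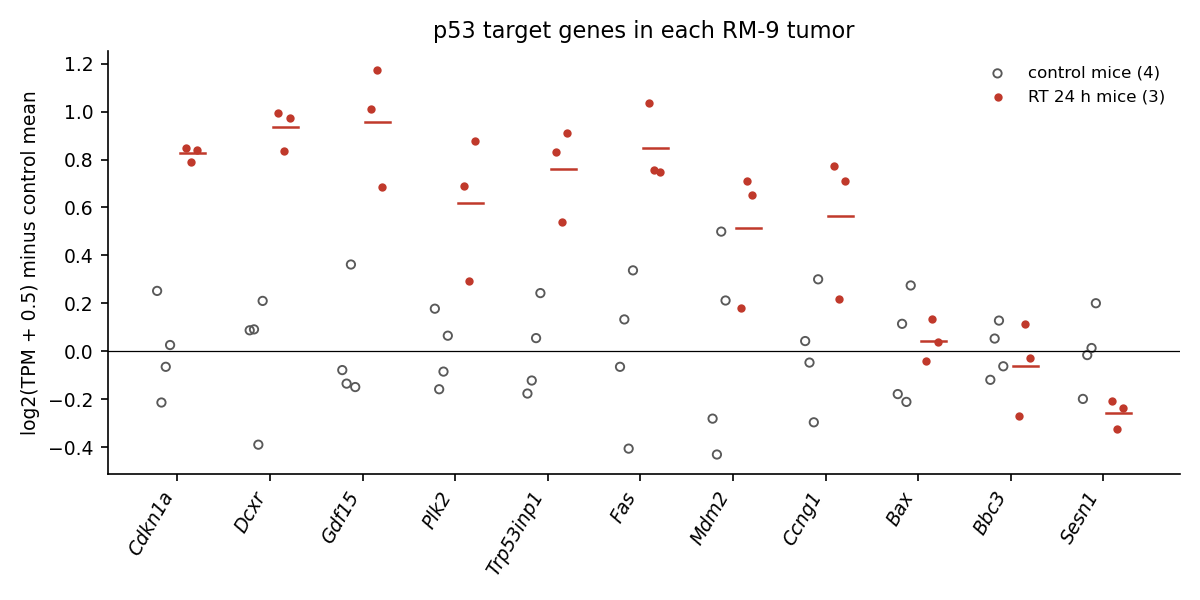
Values of 11 p53 targets in each tumor, as log2(TPM + 0.5) minus the mean of the 4 control mice. Open points are control mice, red points the 3 RT mice, and the short red lines their means. Cdkn1a, Dcxr, Gdf15, Plk2, Trp53inp1 and Fas have every red point above every open one, Mdm2, Ccng1, Bax and Bbc3 overlap, and Sesn1 lies below.

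Ligands of CXCR2, which draw neutrophils, had the largest median of the 40 lists. Cxcl3 was at 1.54, 0.749, 1.47 and 0.306 TPM in control mice and at 6.64, 3.79 and 5.71 TPM after RT, and Ppbp, which encodes the platelet basic protein CXCL7, at 2.15, 0.854, 2.76 and 0.555 TPM and at 5.68, 4.72 and 7.05 TPM. Cxcl2 was at 0.664, 0.852, 0.621 and 0.102 TPM and at 2.41, 1.44 and 2.30 TPM. In each of these genes the lowest RT mouse was above the highest control mouse, and RT mouse 2 was the lowest of the RT mice. The log2 fold changes were 2.02 ± 0.44, 1.74 ± 0.39 and 1.31 ± 0.42 (SE), with limma adjusted p of 0.632, 0.632 and 0.941. On this scale the added 0.5 TPM understates the change of such low genes: with an added 0.1 TPM the median of the list was 1.88 and with 1 TPM it was 0.98.

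Cxcl1 was above every control mouse too, at 0.733 to 0.994 TPM in control mice and 1.99, 1.26 and 1.70 TPM after RT. Its log2 fold change of 0.60 ± 0.41 (SE) had a limma adjusted p of 0.999. Cxcl5 overlapped, at 1.99 to 2.64 TPM and 2.58 to 3.21 TPM. The 5 ligands together summed to 4.55 to 7.71 TPM in control mice and to 19.9, 13.8 and 19.6 TPM in RT mice 1, 2 and 3. In 4 of 5 genes every RT mouse was above every control, beside 2.01% of all genes, and without RT mouse 1 there were 4 again, beside 6.14%. For the list the median log2 fold change was 1.31 as deposited and 1.62 after rescaling.

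The promoters of Cxcl2 and Cxcl3 are shown because both genes were higher in every RT mouse and both hold a match to the kappa-B motif, the letters bound by NF-kB, here in capitals. That of Ccl3 is shown beside them as the chemokine gene with the lowest p, which holds no match in this window. The sequences are RefSeq's for GRCm38.p6, 250 bases before the gene's start to 50 after it, and run 5′ to 3′ along the gene's strand. They lie at chr5:90903649-90903948 (plus strand), chr5:90785851-90786150 (plus strand) and chr11:83649329-83649628 (minus strand).
Cxcl2: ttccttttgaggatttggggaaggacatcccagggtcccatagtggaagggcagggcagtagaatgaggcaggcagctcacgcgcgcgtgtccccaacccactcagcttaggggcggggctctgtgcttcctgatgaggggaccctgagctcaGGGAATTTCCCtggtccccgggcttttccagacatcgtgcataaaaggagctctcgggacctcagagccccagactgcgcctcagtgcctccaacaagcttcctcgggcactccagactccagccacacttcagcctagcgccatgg
Cxcl3: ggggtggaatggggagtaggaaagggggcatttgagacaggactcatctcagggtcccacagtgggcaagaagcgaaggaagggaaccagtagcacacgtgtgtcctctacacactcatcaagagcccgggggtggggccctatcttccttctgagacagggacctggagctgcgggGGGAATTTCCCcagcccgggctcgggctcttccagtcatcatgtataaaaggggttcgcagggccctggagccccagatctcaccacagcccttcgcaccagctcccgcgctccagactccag
Ccl3: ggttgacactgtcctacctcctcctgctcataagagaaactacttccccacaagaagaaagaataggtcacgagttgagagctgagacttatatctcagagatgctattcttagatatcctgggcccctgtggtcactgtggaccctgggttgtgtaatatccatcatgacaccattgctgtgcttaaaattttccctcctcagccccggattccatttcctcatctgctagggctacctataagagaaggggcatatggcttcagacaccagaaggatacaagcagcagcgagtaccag

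In Cxcl2 and Cxcl3 the same 11 capital letters stood 97 and 73 bases before the start, and they hold 2 overlapping matches, 1 on each strand. Cxcl1 held such a pair 71 bases before its start. Of the 22 genes in the lists of CXCR2 ligands and CC chemokines, 15 had a promoter in the table, and 5 of these, Cxcl1, Cxcl2, Cxcl3, Ccl9 and Ccl20, held a match on either strand, beside 8.46% of 32851 promoters of the same length. Cxcl1, Cxcl2, Cxcl3 and Ccl9 were above every control mouse, and so were Ppbp, Ccl3, Ccl6 and Ccl12, which held no match in this window. The match is a description of the letters in this window, and binding was not measured.

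CC chemokines, which draw monocytes and other leukocytes, were the list with the second largest median. Ccl3 was at 1.74, 1.89, 1.87 and 1.19 TPM in control mice and at 5.25, 3.11 and 3.56 TPM after RT, with a log2 fold change of 1.03 ± 0.17 (SE) and a limma adjusted p of 0.167. Ccl2, the main attractant of monocytes, was at 77.7, 96.2, 66.5 and 96.7 TPM and at 150, 134 and 139 TPM, with a log2 fold change of 0.76 ± 0.19 (SE) and a limma adjusted p of 0.785. For Ccl2 the lowest RT mouse was above the highest control by more than the range of the controls. Ccl4 was at 1.86 to 2.92 TPM in control mice and 5.48, 3.5 and 4.19 TPM after RT, and Ccl9 at 13.1 to 23.9 TPM and 41.1, 32.6 and 29.3 TPM. With Ccl6 and Ccl12, 6 of the 15 tested genes of the list were above every control mouse and 0 below, beside 2.01% and 2.24% of all genes. Without RT mouse 1 there were 8 above and 1 below, beside 6.14% and 3.17% of all genes. The list's median log2 fold change was 0.77, with 14 of 15 genes positive, beside 5318 of all 14013 genes. Ccl5, which T cells make, was the gene with a negative log2 fold change, at 9.33 to 15.6 TPM and 11.3, 9.22 and 7.91 TPM.

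**Figure D3:**
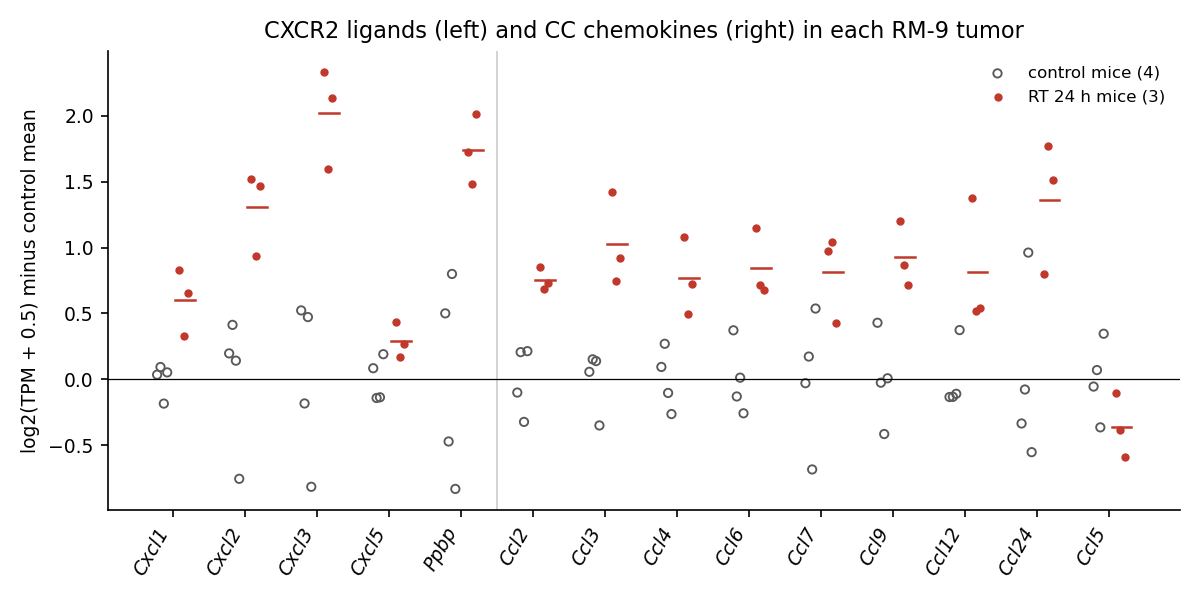
The 5 CXCR2 ligands, left of the grey line, and 9 CC chemokines, right of it, in each tumor, as log2(TPM + 0.5) minus the mean of the 4 control mice. Open points are control mice, red points the 3 RT mice and red lines their means. In 10 of the 14 genes all red points lie above all open points, while Cxcl5, Ccl7, Ccl24 and Ccl5 overlap.

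Markers of the cells that make or answer these signals were read beside them. Since each library is bulk tissue, fewer cells of a type and less RNA per cell cannot be told apart. Of 25 neutrophil markers 16 were tested, and in 0 of them did the groups separate. Their summed level was 51.2 to 73.9 TPM in control mice and 101, 57.3 and 86.9 TPM in RT mice 1, 2 and 3, so RT mouse 2 lay within the controls. Without RT mouse 2, 7 of the 16 were above every control, beside 5.64% of all genes. Cxcr2, the receptor itself, was at 0.463 to 0.713 TPM in control mice and 1.37, 0.562 and 1.16 TPM after RT (log2 fold change 0.46 ± 0.26 (SE), limma adjusted p = 0.999). Trem1, an activating receptor of neutrophils and monocytes, also had RT mouse 2 within the controls, at 0.927 to 1.36 TPM and 2.60, 1.07 and 2.60 TPM. The granule genes Camp and Elane were listed at 0 in all 7 libraries. Whether neutrophils had a part in the chemokine values was not tested.

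Ppbp is also a platelet gene. Of 15 platelet and megakaryocyte markers 7 were tested and 6 others were listed at 0 in all 7 libraries, among them the platelet glycoprotein genes Gp1ba, Gp6 and Gp9. Their summed level was 82.1 to 103 TPM in control mice and 117 to 130 TPM after RT, most of it from Pf4, at 40.3 to 64.2 TPM and 67.1, 86.4 and 64.0 TPM. Ppbp was the one gene of the 7 tested with no overlap, beside 4.25% of all genes in either direction. Macrophage markers summed to 3612 to 4423 TPM and 3671 to 4470 TPM. Without control mouse 3, 6 of 20 were below all controls, beside 5.63% of all genes. Without RT mouse 2, 5 were above all controls, beside 5.64%. With all mice, 2 of 20 were above all controls, beside 2.01% of all genes. The 2 were Arg1, the arginase of tumor macrophages, at 75.6, 77.2, 85.2 and 55.8 TPM in control mice and 112, 157 and 104 TPM after RT, and Folr2, a folate receptor of resident macrophages, at 5.91 to 9.30 TPM and 14.3, 10.5 and 9.88 TPM. Both had a limma adjusted p of 0.999. Of the 12 monocyte markers 0 were above and 2 below, beside 2.24% of all genes, and after rescaling 1 was below, beside 2.73%. One of the 2 was Cx3cr1, the fractalkine receptor, at 1.30 to 2.78 TPM in control mice and 0.982, 0.307 and 1.10 TPM after RT.

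NF-kB feedback genes and the cytokines that it controls were higher in part. Of 25 tested genes, 7 were above every control mouse and 0 below, beside 2.01% and 2.24% of all genes. At an unadjusted p under 0.05, 10 were higher and 0 lower, beside 1.98% and 2.88%. Lif, a cytokine of the interleukin 6 family, was at 5.14, 4.77, 7.52 and 7.27 TPM in control mice and at 9.07, 8.58 and 11.5 TPM after RT, with a log2 fold change of 0.63 ± 0.18 (SE). Traf1, an adaptor of tumor necrosis factor receptors, was at 3.32 to 4.92 TPM and 6.64, 5.36 and 6.39 TPM. Il11, of the same cytokine family as Lif, was at 1.09 to 3.30 TPM and 4.13, 3.31 and 4.65 TPM, where RT mouse 2 exceeded the highest control by little. The others were the inhibitors of NF-kB Nfkbia and Nfkbie, Bcl3 and Ptgs2, named after their values were seen. Nfkb1 and Socs3 had log2 fold changes of -0.05 and 0.01. Csf2, a growth factor of granulocytes and macrophages, had the largest log2 fold change of the list, 0.90 ± 0.27 (SE), but RT mouse 2, at 0.902 TPM, was below the highest control, at 0.938 TPM. The list's median was 0.25, and without RT mouse 2 the count above all controls was 12, beside 5.64% of all genes.

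Interleukin 1 itself was not separated from the controls. Il1b was at 23.2, 29.7, 14.4 and 12.7 TPM in control mice and at 37.9, 19.4 and 26.7 TPM after RT, a log2 fold change of 0.51 ± 0.36 (SE) with a limma adjusted p of 0.999. Il1a was at 0.418 to 1.04 TPM and 2.03, 0.648 and 2.92 TPM. In both genes RT mouse 2 lay inside the controls. Il1rn, the receptor antagonist that opposes them, was above every control mouse, at 9.28 to 15.5 TPM and 23.3, 17.0 and 20.7 TPM, with a log2 fold change of 0.65 ± 0.16 (SE) and a limma adjusted p of 0.748. It was the only gene of the 11 tested in the interleukin 1 family with no overlap, beside 4.25% of all genes in either direction. The family's median was 0.029.

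Genes of matrix breakdown had a median log2 fold change of 0.48, after CXCR2 ligands and CC chemokines the largest among lists with at least 5 tested genes. Plau, the urokinase plasminogen activator, was at 79.1, 99.2, 104 and 68.1 TPM in control mice and at 140, 110 and 185 TPM after RT, with a log2 fold change of 0.71 ± 0.19 (SE) and a limma adjusted p of 0.803. Its receptor Plaur and the aggrecanase Adamts4 were also above all controls, Adamts4 at 6.67 to 9.42 TPM and 9.56, 10.0 and 12.7 TPM. RT mouse 3 held the highest value of the macrophage metalloelastase Mmp12, at 31.6 TPM beside 13.6 and 16.6 TPM in the other two RT mice and 4.26 to 14.3 TPM in control mice. Of 18 tested genes 16 were positive, beside 5318 of all 14013 genes. In 3 of the 18 every RT mouse was above every control, beside 2.01% of all genes. The count rose to 8 without RT mouse 1, where the share of all genes rose too, to 6.14%. It was 6 without control mouse 3 or RT mouse 2, beside 4.01% and 5.64% of all genes, and 5 without control mouse 2 or control mouse 4, beside 2.72% and 3.86%.

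Among the genes outside these lists, Ptx3, a soluble pattern recognition molecule, was at 1.19, 0.657, 0.470 and 0.951 TPM in control mice and at 4.5, 2.29 and 2.13 TPM after RT, a log2 fold change of 1.37 ± 0.33 (SE). Angptl4 was at 17.2, 10.3, 13.7 and 8.88 TPM and at 36.3, 19.8 and 27.7 TPM, a log2 fold change of 1.13 ± 0.26 (SE). Both had a limma adjusted p of 0.748. Cd209f, a lectin of macrophages, was at 0.438 to 1.30 TPM and 2.84, 1.65 and 2.72 TPM, with a limma adjusted p of 0.632. Sgsm3 (ENSMUSG00000103565) and Rffl completed the higher genes, with log2 fold changes of 1.15 and 1.13, and RT mouse 1 at 1.13 TPM was barely above the highest control, 1.07 TPM, for Rffl. The histone gene Hist2h2aa1 is uncertain, because reads of near-identical copies can be split between genes and control mouse 1 was listed at 0. The 2 other genes of the 12, named after their values were seen, were the small RNA gene Snord89 and Gm22615, each with a mean under 1 TPM.

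MHC class II genes and T cell markers were among the lists with the lowest medians, with little separation of the groups. The MHC class II genes present peptides to CD4 T cells. H2-Aa was at 139, 153, 68.8 and 198 TPM in control mice and at 78.3, 48.7 and 81.5 TPM after RT, and H2-Eb1 at 95.1, 113, 45.6 and 146 TPM and at 53, 35.9 and 56.4 TPM. The log2 fold changes were -0.94 ± 0.33 and -0.94 ± 0.35 (SE), with limma adjusted p of 0.998 and 0.999. Control mouse 3 was at or below the highest RT mouse for both genes. With it, 0 of 9 tested genes had all RT mice below all controls, and without it 6 of 9 did, beside 5.63% of all genes. All 9 had a negative log2 fold change, with a median of -0.46, beside 8695 negative of all 14013 genes. At an unadjusted p under 0.05 4 were lower, beside 2.88% of all genes. Dendritic cell markers summed to 110 to 175 TPM in control mice and 141 to 169 TPM after RT, and of 13 B cell markers 2 were tested. Their part in the class II values was not tested.

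Trac, the constant region of the T cell receptor alpha chain, was at 2.67, 2.77, 3.01 and 4.49 TPM in control mice and at 1.69, 1.64 and 1.62 TPM after RT. The log2 fold change was -0.77 ± 0.22 (SE), with a limma adjusted p of 0.803. Cd2, an adhesion receptor of T and NK cells, was at 3.02, 2.34, 1.72 and 3.77 TPM and at 1.63, 1.54 and 1.11 TPM, also with no overlap. Of 19 T cell markers 9 were tested. All 9 had a negative log2 fold change, with a median of -0.41, beside 8695 negative of all 14013 genes. In 2, Trac and Cd2, every RT mouse was below every control, beside 2.24% of all genes. Without control mouse 3 there were 4, beside 5.63%, and without RT mouse 2 also 4, beside 10.7%. NK and cytotoxic markers had a median of -0.31, with 0 of 8 genes separated. Over the alternatives the T cell median ran from -0.60 to -0.29.

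Interferon-stimulated genes were close to the controls. Of 32 tested genes 30 had a positive log2 fold change, with a median of 0.18, beside 5318 positive of all 14013 genes. Yet in 0 of the 32 did the groups separate, and 0 passed an unadjusted p of 0.05. Their summed level was 265 to 446 TPM in control mice and 600, 354 and 339 TPM in RT mice 1, 2 and 3. RT mouse 1 held the highest value, as for Mx1, at 1.2 to 2.80 TPM in control mice and 4.89, 1.56 and 2.56 TPM after RT. Without 1 library at a time the median ran from -0.10 to 0.40, so its sign changed with single mice.

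The sensors of cytosolic DNA did not separate the groups in TPM as deposited. Mb21d1, which encodes cGAS, was at 0.295, 0.468, 0.293 and 0.548 TPM in control mice and at 0.601, 0.179 and 0.342 TPM after RT, below the mean level required for the test. Tmem173, which encodes STING, was at 48.9, 44.5, 38.8 and 49.9 TPM and at 43.4, 45.8 and 44.8 TPM, with a log2 fold change of -0.02 ± 0.11 (SE). Ifnb1, interferon beta, was at most 0.0473 TPM in the 7 libraries. Aim2 was at 14.1, 27.2, 29.7 and 29.5 TPM and at 21.5, 21.7 and 26.9 TPM, with a log2 fold change of -0.05 ± 0.24 (SE), and the other tested genes of both pathways overlapped as well in TPM as deposited. After rescaling, 1 of them, Irf3, a transcription factor downstream of STING, was above every control mouse (limma adjusted p = 0.928), and its log2 fold change on that scale was 0.17.

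Genes of cell division were lower on average by small amounts. Of 32 genes of G2/M and mitosis 29 had a negative log2 fold change, with a median of -0.25. Of 34 DNA replication genes 30 did, with a median of -0.18, beside 8695 of all 14013 genes tested. Among the genes of G2/M and mitosis, 1 had every RT mouse above every control as deposited, and 1 after rescaling. The shares of all genes were 2.01% and 2.81%. In each list 1 gene had all RT mice below all controls, near the 2.24% of all genes. These were Cdc25c, the phosphatase that admits cells to mitosis, at 5.29, 5.34, 4.67 and 6.01 TPM in control mice and 3.31, 3.82 and 4.05 TPM after RT, and Lig1, the DNA ligase of replication, at 13.4 to 19.4 TPM and 9.48, 13.4 and 13.1 TPM, where RT mouse 2 and control mouse 3 were equal to 3 digits. The limma adjusted p were 0.953 and 0.999. After rescaling the counts were 3 and 1, beside 2.73% of all genes. Leaving out any one of 4 mice raised these counts and also the share of all genes below every control. That share was 6.04% without RT mouse 3, 5.63% without control mouse 3, 10.7% without RT mouse 2 and 4.22% without control mouse 2. In that order the genes of G2/M and mitosis below all controls were 9 (28.1% of the list), 8 (25%), 5 (15.6%) and 5 (15.6%). The replication genes were 2 (5.88%), 5 (14.7%), 6 (17.6%) and 4 (11.8%), so without RT mouse 3 they were no more frequent than all genes. Genes of double-strand break repair had a median of -0.089, with 1 of 32 below all controls, again near the background. There were 6 (18.8%) without RT mouse 3, 4 (12.5%) without control mouse 2 and 3 (9.38%) without RT mouse 2, the last fewer than the share of all genes.

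Of the stress lists, Nrf2 targets were split, with 7 of 15 tested genes positive and 8 negative. In 1 every RT mouse was above every control and in 2 every RT mouse was below, beside 2.01% and 2.24% of all genes. Hmox1, heme oxygenase, was at 19.9, 14.7, 17.3 and 15.6 TPM in control mice and at 21.2, 25.7 and 26.6 TPM after RT, a log2 fold change of 0.53 ± 0.12 (SE) with a limma adjusted p of 0.632. Gstm1, a glutathione transferase, lay the other way, at 11.8 to 15.7 TPM and 7.36, 11.3 and 10.1 TPM, a log2 fold change of -0.51 ± 0.14 (SE) with a limma adjusted p of 0.803. The medians of Nrf2 targets, heat shock chaperones, hypoxia and glycolysis genes, BCL2 family, immediate early genes, MHC class I, endothelial and collagen lists lay between -0.14 and 0.049. The muscle list had a median of -0.42, with 0 of 22 genes separated. Single control mice lay further apart than the groups, with an SD of 1.32 in the list's mean log2 level.

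**Figure D4:**
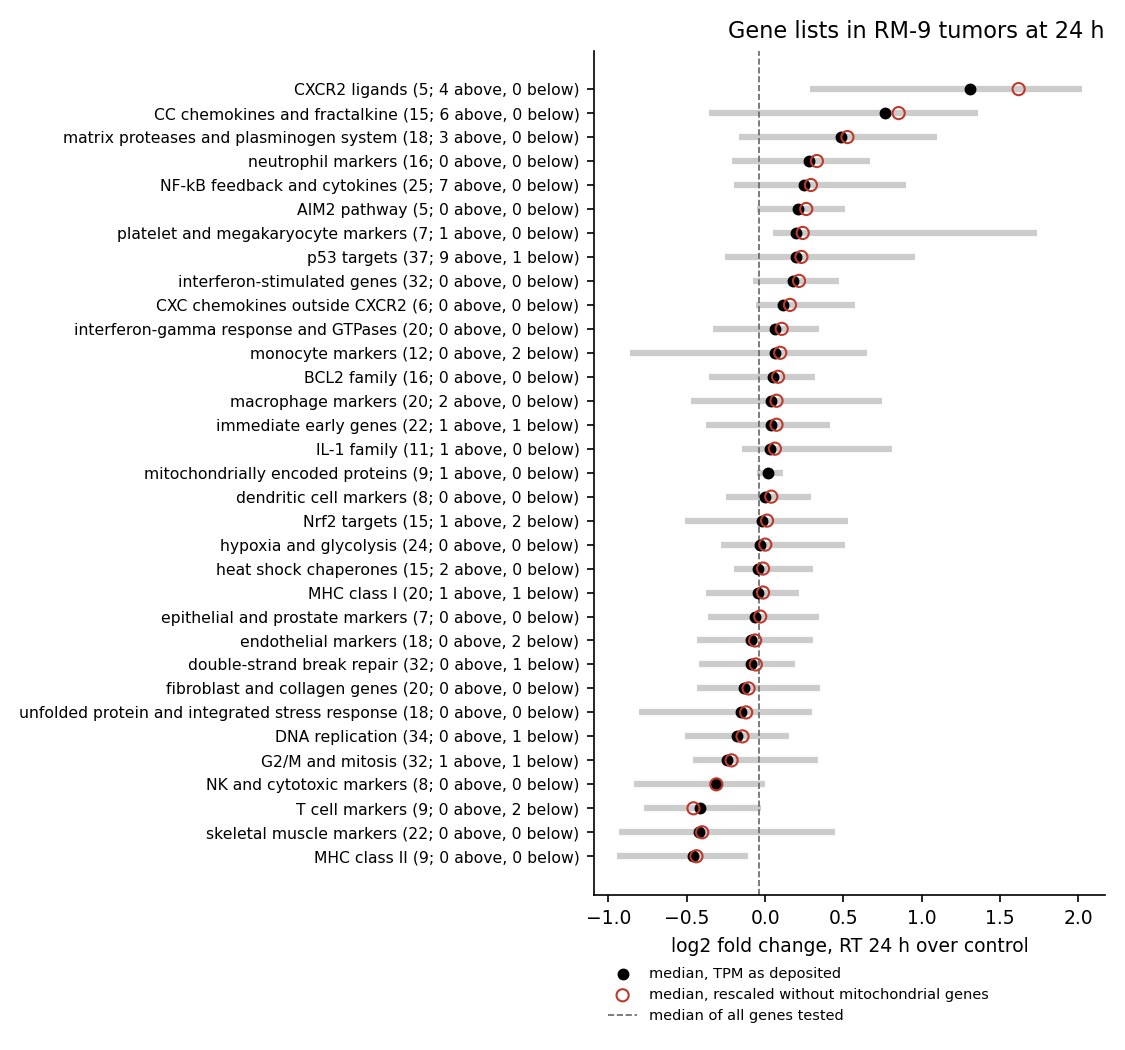
Each line is 1 gene list with at least 5 tested genes, with the number tested and the numbers whose RT mice all lay above or all below the controls in brackets. Black points are the median limma log2 fold change in TPM as deposited, red circles the median after rescaling without mitochondrial genes, grey bars the range over members, and the dashed line the median of all genes, -0.040. CXCR2 ligands lie highest, at 1.31, and MHC class II lowest, at -0.46.

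The 12 lower genes of largest fold named by the rule included a mast cell gene, a clock gene and lymphocyte genes. Mcpt1, a mast cell protease, was at 3.96, 5.04, 3.15 and 5.67 TPM in control mice and at 0.628, 2.88 and 1.69 TPM after RT, a log2 fold change of -1.26 ± 0.48 (SE). Dbp, a transcription factor under control of the circadian clock, was at 8.87, 7.41, 8.03 and 10.8 TPM and at 2.10, 6.13 and 2.94 TPM, a log2 fold change of -1.24 ± 0.26 (SE) with a limma adjusted p of 0.632. RT mouse 2 was the nearest to the controls, and without it the limma adjusted p was 0.0474, in a range of 0.0272 to 1 over the alternatives. Pcdhga6, a protocadherin, was at 1.26, 1.62, 2.13 and 1.53 TPM and at 0.314, 0.479 and 0.966 TPM. It shares its last exons with the other genes of its cluster, so its reads cannot all be assigned to it. Adh7 and Clec4a2, a lectin of myeloid cells, had log2 fold changes of -0.77 and -0.71, both with a limma adjusted p of 0.941. The uncharacterized 0610010K14Rik was at 27.4 to 44.1 TPM in control mice and 15.4, 25.7 and 17.6 TPM after RT (limma adjusted p = 0.803). H3f3a, Gm6654 and Gm20708 overlap or resemble other genes and are uncertain.

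The 24 h tumors were set beside RM-9 tumors at 12 h, which share no library with them. Limma found 0 of 14013 genes with an adjusted p under 0.05, both as deposited and after rescaling, with a lowest adjusted p of 0.0681 and 0.179. At an unadjusted p under 0.05, 2563 genes had their higher level at 24 h and 75 their lower, or 1325 and 294 after rescaling, and the mitochondrial share was 52.4% to 57.2% at 12 h. Ptx3, Cd209f and Il1rn were among the genes at the lowest adjusted p, with log2 differences of 1.99, 1.63 and 0.90. Values against control share the control mice and are given side by side only. Cdkn1a was at 190 ± 28.3 TPM at 3 h, 141 ± 21.4 TPM at 12 h (SD, n = 4 each) and 172 ± 3.71 TPM at 24 h. Ccl2 was at 82.6 ± 21.1 and 84.8 ± 10.8 TPM at 3 h and 12 h and at 141 ± 8.38 TPM at 24 h, and Ptx3 at 0.384 ± 0.210, 0.411 ± 0.480 and 2.98 ± 1.32 TPM. Cxcl3 was at 1.71 ± 1.21, 2.31 ± 1.18 and 5.38 ± 1.46 TPM. The MHC class II gene H2-Aa was at 89.9 ± 21.5, 64.9 ± 23.3 and 69.5 ± 18.1 TPM, beside 140 ± 53.6 TPM in control mice.

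The change at 24 h was then compared with that of MC-38 tumors at the same time after the same dose, with their own 4 control and 4 RT mice. The difference between both changes passed an adjusted p of 0.05 in limma for 359 of 16141 genes (2.22%) with the MC-38 change higher and 4 (0.0248%) with it lower. The median difference over the 16141 genes was 0.25 on the log2 scale, in the same direction. In both directions together 353 genes passed after rescaling and 277 with scaling by median ratios. Genes of the mitochondrial genome held 25.7% to 40.6% of TPM in MC-38 control mice and 22.5% to 30.5% in MC-38 mice at 24 h. With 1 RM-9 mouse left out, the sum of 363 fell to 76 without RT mouse 1, 121 without control mouse 4 and 175 without RT mouse 3. It was 179, 199 and 221 without RM-9 control mice 1, 2 and 3. No alternative left out an MC-38 mouse. Tmem173 was higher by 0.89 ± 0.16 (SE) in the MC-38 change (limma adjusted p = 0.00271, and between 0.0019 and 0.0327 over the alternatives). It was at 35.7 ± 4.77 TPM in MC-38 control mice and 65.4 ± 3.13 TPM after RT (SD, n = 4 each), where RM-9 had 45.5 ± 5.04 (SD, n = 4) and 44.7 ± 1.21 TPM (SD, n = 3). Ccl5 was higher by 1.92 ± 0.42 (SE) in the MC-38 change (limma adjusted p = 0.0166), and with scaling by median ratios its adjusted p was 0.0509. Of the 34 replication genes 11 passed, and of the 32 genes of G2/M and mitosis 5. Among them were Lig1, Cdt1, Mcm7, Nusap1 and Kif23, whose mean was higher after RT in MC-38 and lower in RM-9, with differences of 0.70 to 1.11 and adjusted p of 0.0315 to 0.0488. Each of these 5 lost its call without RT mouse 1, without control mouse 1 and without control mouse 4 of RM-9, and all but Kif23 also without at least 1 other mouse.

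For CXCR2 ligands no difference between the models passed. Cxcl3 differed by -0.88 ± 0.55 and Cxcl2 by 0.17 ± 0.55 (SE), with limma adjusted p of 0.345 and 0.890. Ppbp was at 0.594 ± 0.35 TPM in MC-38 control mice and 0.665 ± 0.252 TPM after RT, and its difference of -1.62 ± 0.54 (SE) had an adjusted p of 0.0933. Cdkn1a differed by -0.09 ± 0.18 (SE, limma adjusted p = 0.799). The 4 genes with the MC-38 change lower, named after the test, were Gpr84, the histone genes Hist1h4a and Hist1h4i, which resemble other histone genes and are uncertain, and AC099934.2, listed at 0 in the 7 RM-9 libraries.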

How the data were processed

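Tumor mRNA was sequenced from TruSeq stranded libraries with 75-base reads. Per the labels, bcl2fastq 2.17 was used and the build was GRCm39, but gene coordinates in the files matched GENCODE M21 of GRCm38, with 91.1% of 45137 shared genes having the same start or end, so coordinates are given as GRCm38. The aligner and counter are not given in the sources used here. For each library the authors deposited a gene table with coverage signal, FPKM and TPM. The TPM column was summed per gene identifier. The deposited FPKM and coverage served to estimate depth, and coverage also served as an alternative to TPM. The deposited files hold no counts, so no count model was used, and 0 columns of other samples were present.

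The test was limma 3.58.1 (R 4.3.3) on log2(TPM + 0.5) (empirical Bayes with a trend), in 1 fit over the 15 RM-9 libraries of 4 groups, for 14013 genes with a mean of at least 0.5 TPM, with Benjamini-Hochberg adjustment at 0.05. A fold change on this scale understates the change of low genes. The difference from MC-38 was the interaction term in a fit over all 31 libraries and 16141 genes. Each library is 1 mouse, and p-values measure the spread between these mice. On simulated data with the same design, limma recovered 92% of 100 genes changed by 1 on the log2 scale and 97% of 100 changed by 2, among 14013 genes, with 7 false calls. The changed genes were drawn only from those with a mean log2(TPM + 0.5) above that of 2 TPM. Errors were independent and normal, with no shift of a whole library as in RT mouse 1. The simulation therefore does not show that changes of this size would have been found in these data. Exact permutation and Dunnett tests were made in Python 3.11.15 with scipy 1.17.1. Rescaling set the total of all genes off the mitochondrial chromosome to 1000000 in each library.

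Named genes were the 12 highest and 12 lowest log2 fold changes among genes with a mean of at least 1 TPM and groups that did not overlap, up to 4 genes of lowest p in each of 38 lists, the CXCR2 ligands and Cxcr2, the DNA-sensing genes of the study, and the mitochondrially encoded proteins as a group. Other genes in the text were chosen after their values were seen, among them Ccl5, Ccl6, Ccl12, Krt18, Nfkb1, Plaur and Socs3 and the markers listed at 0. The libraries compared and the lists were chosen with earlier results of these data known, and 2 further lists were added after values were seen. Promoters are from RefSeq for GRCm38.p6. The kappa-B motif was searched on both strands of each.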

Additional observations from a re-analysis of the deposited data

Results flagged for a closer look

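Among 113 genes of the text examined, 5 had a control mouse far from the other 3, with a gap that took up nearly the whole range of the group. Gdf15 was at 0.933 TPM in control mouse 3, Gm6654 at 4.25 TPM in control mouse 1, Ccl12 at 22.4 TPM and Mcm7 at 61.8 TPM in control mouse 4, and Aim2 at 14.1 TPM in control mouse 1. Chance alone marks about 1 in 20 groups of this size, and 5 of 113 is near that share.

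The change at 24 h differed between MC-38 and RM-9 by the interaction term for 15 genes of the text. In 11 of them the MC-38 change was higher, where the share over all 16141 genes was 2.22%. Of the 11, Cdt1, Mcm7, Nusap1, Kif23, Chek1 and Calr entered the text through this test, and so did the other 4. Neither number is therefore a result about the genes of the text. The log2 difference was 2.00 for Ifnb1, with a limma adjusted p of 0.000283, and 0.89 for Tmem173, with 0.00271. Both were called in all 10 alternatives, none of which left out an MC-38 mouse. Ifnb1 was at 0.684 ± 0.240 TPM in MC-38 control mice and 4.38 ± 2.16 TPM after RT (SD, n = 4 each), and at or near 0 in every RM-9 control and RT 24 h library. Ccl5 differed by 1.92 (limma adjusted p = 0.0166) and was called in 9 of the 10. It was at 120.0 ± 17.9 TPM in MC-38 control mice and 376 ± 152 TPM after RT, where RM-9 had 12.3 ± 2.59 (SD, n = 4) and 9.46 ± 1.69 TPM (SD, n = 3). Kif23 differed by 1.07, Nusap1 by 1.11, Lig1 by 0.94, Chek1 by 0.87, Mcm7 by 0.73 and Cdt1 by 0.70. Calr, a chaperone of the endoplasmic reticulum, differed by 0.58 and Pcdhga6 by 1.63. These 8 genes had adjusted p of 0.0255 to 0.0488, and each lost its call in 3 to 6 of the 10 alternatives, all 8 of them without RM-9 RT mouse 1 and without RM-9 control mouse 4. The highest adjusted p over alternatives was 0.110 for Kif23 and 0.199 for Mcm7.

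In 4 genes the MC-38 change was lower, by limma adjusted p of 0.0488 to 0.0492, and each lost its call in 6 to 8 of the 10 alternatives. The log2 differences were -0.94 for Gpr84, -0.78 for Hist1h4a, -0.83 for Hist1h4i and -5.64 for AC099934.2. The last is a fitted value that depends on the added 0.5 TPM, since the gene was at 24.8 ± 4.48 TPM in MC-38 control mice (SD, n = 4) and listed at 0 in the MC-38 mice at 24 h and in the 7 RM-9 libraries.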

How the results depend on the processing

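Against control the main setting held 0 calls at 24 h, so no call could change its direction there. Values without a call did: over the alternatives, 110 of 791 list medians and 89 of 4386 log2 fold changes of named genes had the opposite sign to the value reported. The count of genes past the adjusted threshold was 0 in all but 4 of 27 alternatives. It was 2 with no filter on low values, Hormad2 and Fcgbp, both listed at 0 in all control mice. Leaving out 1 mouse gave 0 to 1 as deposited, where the 1 was Dbp without RT mouse 2, and 0 to 2 after rescaling, where Cdkn1a passed without control mouse 1 and Clec5a and Dbp without RT mouse 2. The median over all genes ran from -0.074 to 0.023 with 1 mouse left out, the last without RT mouse 1. The difference between tumor models ran from 76 to 341 genes with 1 RM-9 mouse left out, and MC-38 mice were not left out. Between the 24 h and 12 h tumors 0 genes passed the adjusted threshold on both scales. At an unadjusted p under 0.05, 754 genes were higher and 686 lower with no filter, 126 and 272 with a mean of at least 5 TPM, and 158 and 166 by Dunnett comparisons.

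Same-numbered control and RT mice correlated at 0.317, -0.005 and 0.202 in their deviations from the group means, so the numbers were not taken as pairs. With the replicate block, 0 genes passed, 308 were higher and 273 lower at an unadjusted p under 0.05, and the difference between tumor models was 454 genes. With only 3 RT mice, and 30.3 to 33.9 reads per kilobase at 1 TPM in them, genes under 1 TPM rest on few reads, and the cause of each shift was not tested.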

Other observations

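Genes of the circadian clock were lower on average at 24 h. This list was put together after Dbp was seen, so its values are a description. In 6 of 15 tested genes every RT mouse was below every control mouse, beside 2.24% of all genes, and the median log2 fold change was -0.37. Beside Dbp these were Tef, Per2, Nr1d2, Cry1 and Cry2. Per2, a repressor of the clock, was at 0.833, 0.662, 1.02 and 1.27 TPM in control mice and at 0.433, 0.397 and 0.480 TPM after RT. Arntl, the activator that the repressors oppose, was at 4.71 to 8.31 TPM and 6.43, 7.39 and 6.94 TPM. With 1 mouse left out the count was 6 to 8, beside 2.59% to 10.7% of all genes. The time of day of collection is not given in the sources used here, and its part in these values was not tested.

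Mast cell markers, also listed after values were seen, had a median of -0.19, with 1 of 10 tested genes, Mcpt1, below all controls, beside 2.24% of all genes. The list was made because Mcpt1 was low. Their summed level was 35.1 to 66.1 TPM in control mice and 44.6 to 57.4 TPM after RT.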
